A study of Schizosaccharomyces pombe with 3 samples.

Results

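Probes sp40c_148521 to sp40c_149240 of the tiling array form 2 runs in which the strands had similar wildtype signal, between *dcr1* and *grc3* on chromosome III. They were chosen by the wildtype signal of both strands, in blocks of 40 consecutive probe numbers, and hold 720 of the 174063 numbered probes. Run A covers probes sp40c_148521 to sp40c_148840 (320 probes, 8 blocks), run B covers probes sp40c_148881 to sp40c_149240 (360 probes, 9 blocks), and a block of 40 probes, sp40c_148841 to sp40c_148880, lies between them. The study compared RNA of *dhp1-1* cells and of *din1Δ* cells with RNA of wildtype cells on 3 Agilent 2-colour arrays, labelling mutant cDNA with Cy5 and wildtype cDNA with Cy3, to ask whether transcripts of silenced repeats rise in either mutant. The *dhp1-1* strain p1088 was measured on 2 arrays from biological replicates against wildtype strain p1087, and the *din1Δ* strain p1044 on 1 array against wildtype strain p344. All cells were in log phase in rich medium (YEA) at 30°C, a temperature at which *dhp1-1* cells grow, and the cDNA was made from rRNA-depleted RNA with oligo(dT) and random hexamer primers. *dhp1-1* is a temperature-sensitive allele in which *ura4*+ takes the place of part of the carboxyl-terminal end, and strain p1088 also carries a *ura4*+ reporter at the outer repeats of centromere 1 and an *ade6*+ reporter at *mat2*. The genotypes of p1087, p344 and p1044 beyond these labels are not given in the sources used here. The values of *din1Δ* therefore have no replicate, and any difference between the wildtype strains is part of each difference between the mutants.

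Dhp1 is the fission yeast member of the Rat1/Xrn2 family of nuclear exoribonucleases, which degrade RNA from its 5′ end and release RNA polymerase II past the end of a gene, and Din1 is its partner protein of the Rai1 family. In fission yeast, the repeats of the centromeres and the mating type locus are packed in heterochromatin and yet transcribed from both strands. The double-stranded RNA is cut by Dicer, the product of *dcr1*, which feeds RNA interference. Grc3 is a polynucleotide kinase that acts with Las1 in the processing of ribosomal RNA precursors. Signal of equal height on both strands is a trait of such repeats, whereas a protein-coding gene is mostly read from 1 strand.

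In the blocks that make up the runs, the median processed wildtype signal of even-numbered and odd-numbered probes differed by 0.15 to 1.91 log2 units, against a limit of 2. The blocks just inside the limit start at probes sp40c_149121 (1.91) and sp40c_148721 (1.84). Those just outside it are the block between the runs (2.31), the block after run B (3.14) and the block before run A (3.55). These values chose the members and are given as a description. Within the runs neither strand was always the brighter. In run A the odd strand was brighter at probes sp40c_148721 to sp40c_148760 by 1.84, and the even strand was brighter at probes sp40c_148641 to sp40c_148680 by 1.06.

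Probe by probe, the data did not show the likeness of the strands that the block medians have. The wildtype level of a probe, averaged over the arrays, and that of its neighbour on the other strand had a correlation of -0.11 in run A and -0.14 in run B. Over the stretch of chromosome II taken as centromere 2 (1120 probes), which has the same kind of blocks, this correlation was 0.43. Neighbouring probes lay within 2 log2 units of each other in 50.2% of the pairs of run A and 47.9% of those of run B, against 88.3% in the centromere 2 stretch. Over all probes up to *ipi1*, the last gene placed before the chromosome III stretches, 42.0% of the neighbouring pairs did so, and over the probes from *epe1* on, which include the runs, 40.9%, with a correlation of -0.08 between neighbours. Between probes that are next to each other on the same strand, the correlation was 0.30 in run A and 0.36 in run B, against 0.47 over the probes from *epe1* on and 0.72 over the probes up to *ipi1*. These correlations are across probes of the same arrays, which share slides and labelling and are not independent replicates. The centromere 2 stretch was also dimmer, with a median wildtype level of 7.36 log2 units, against 8.18 in run A and 8.35 in run B. A pair of dim probes counts as alike, and the part of such pairs in the likeness of that stretch was not tested. That stretch also lies among the probes up to *ipi1*, where probes are closer together, and the part of the spacing was not tested either.

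**Figure D1:**
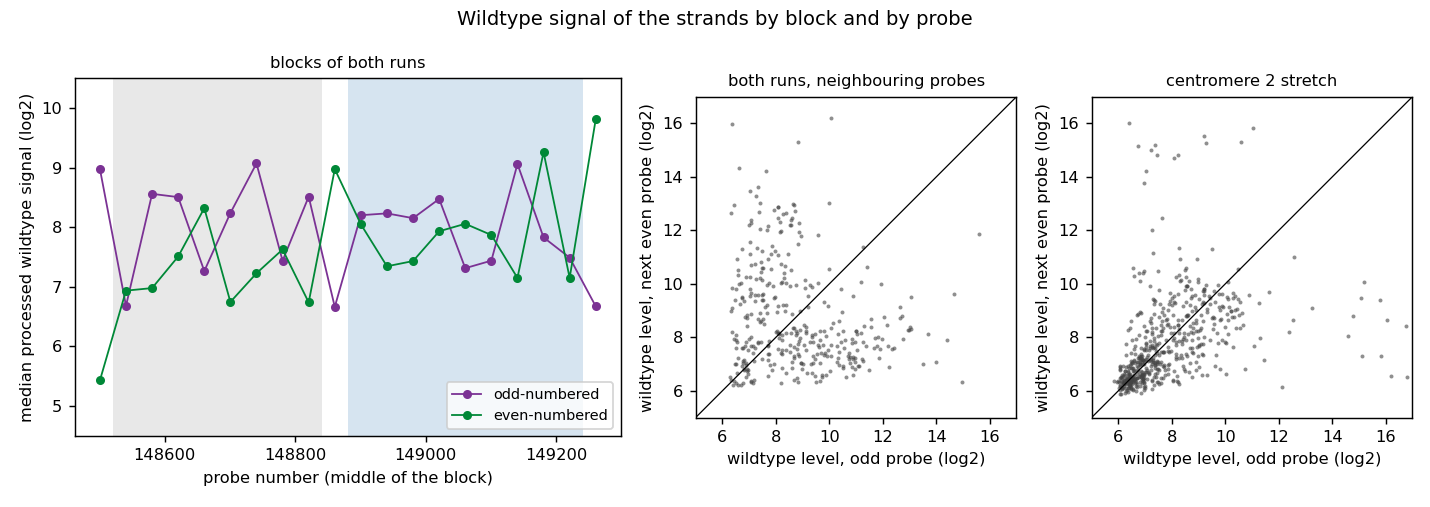
Left, the median processed wildtype signal (log2) of odd-numbered and even-numbered probes in each block of 40 along both runs (run A shaded grey, run B shaded blue). Middle and right, the wildtype level of each odd-numbered probe against that of the next even-numbered probe, for both runs with the block between them and for the centromere 2 stretch. The block medians lie within 2 units of each other inside the runs, but the pairs of probes spread along both axes in the runs and along the diagonal in the centromere 2 stretch. Many pairs of the centromere 2 stretch have low levels at both probes.

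The probes here are also far apart on the chromosome. The 19 genes placed up to *ipi1* have a median of 11.6 probes of their own strand per kb of gene, against 1.72 for the 17 genes placed from *epe1* on, a range of 0.685 to 2.36. *dcr1* has 9 probes on 5609 bases and *grc3* has 5 probes on 3790 bases. Between them, 2694 probe numbers stand for 622 annotated genes, of which 264 are protein-coding, so that a block of 40 numbers takes in about 3.92 protein-coding genes. Blocks within the limit made up 53.5% of the 665 blocks from *epe1* on, against 27.9% of the 3354 blocks up to *ipi1*, and 12 runs of 8 or more blocks were found on the whole array. By these measures runs A and B were not shown to be repeat-like, and they are called by their probe numbers. Which genes the probes belong to was not determined here, because the deposited probes carry numbers and no positions.

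Most probes of the runs were well above background, the flag that the scanner software gives to a spot clearly brighter than its surroundings. In run A the share of such probes in the mutant channel was 90.0% and 70.6% for *dhp1-1* and 63.8% for *din1Δ*, and in the wildtype channel 73.4%, 64.1% and 69.1%. In run B it was 86.7% and 75.8% for *dhp1-1* and 67.2% for *din1Δ* in the mutant channel, and 74.7%, 68.6% and 70.6% in the wildtype channel. The high share in the mutant channel of *dhp1-1* replicate 1 was not particular to these probes, since it was 84.3% over all numbered probes of that array, against 71.0% and 66.1% on the other arrays. The wildtype shares were not particular to the runs either. Over all numbered probes they were 71.65% and 67.27% on the *dhp1-1* arrays and 67.19% on the *din1Δ* array. By strand, the wildtype share in run A was 77.5%, 67.5% and 73.8% for odd numbers, and 69.4%, 60.6% and 64.4% for even numbers. In run B the strands lay closer, at 72.8%, 70.6% and 69.4% on the odd strand and 76.7%, 66.7% and 71.7% on the even strand. Both channels of all 3 arrays were above background at 168 probes of run A and 219 probes of run B. No share over all numbered probes is given for this count, and nothing is read from it.

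The mean wildtype levels over the runs were close to each other. The normalization and the scaling between arrays draw such means together, so no likeness of the wildtype strains is read from them. After scaling between arrays, the mean wildtype level of run A was 8.76 and 8.70 log2 units on the *dhp1-1* arrays and 8.79 on the *din1Δ* array. For run B it was 8.77, 8.80 and 8.79.

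Run A differed little from wildtype in *dhp1-1*. Its mean log2(mutant/wildtype) was 0.04 in *dhp1-1* replicate 1 and 0.10 in replicate 2, and -0.16 in *din1Δ*. Both *dhp1-1* arrays were above the *din1Δ* array. The *dhp1-1* mean was 0.07 ± 0.04 (SD, n = 2), or 1.05-fold (standard error 0.087), and missed the threshold of 0.05 (limma, adjusted p = 0.587 by Benjamini-Hochberg over 8737 features). *dhp1-1* minus *din1Δ* was 0.23 (standard error 0.15) and missed it too (limma, adjusted p = 0.371). This fit takes the spread of the lone *din1Δ* array to be that of *dhp1-1*. In RNA of whole cultures, a change in all cells and a larger change in some of them cannot be told apart. For the odd strand the ratio was 0.14 and 0.12 in *dhp1-1* and -0.13 in *din1Δ*. On the even strand it was -0.05 and 0.08 in *dhp1-1* and -0.19 in *din1Δ*. The *dhp1-1* arrays thus lay on opposite sides of 0 on the even strand and on the same side on the odd strand.

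Run B had the higher ratio in *dhp1-1*. It was 0.26 in replicate 1 and 0.27 in replicate 2, and -0.03 in *din1Δ*. The *dhp1-1* mean was 0.26 ± 0.005 (SD, n = 2), or 1.20-fold, and 0.29 above *din1Δ*. The ratio of run B was known when the limit on run length was set, so these values are a description without a test. Odd-numbered probes had 0.19 and 0.20 in *dhp1-1* and -0.09 in *din1Δ*, and even-numbered probes 0.33 in both *dhp1-1* replicates and 0.02 in *din1Δ*. The medians over the probes of run B were much lower than the means, at 0.08 and 0.09 in *dhp1-1* and -0.01 in *din1Δ*, so that the mean rests on few probes. Without probes sp40c_149081 to sp40c_149160, a choice made after their values were seen, run B had a ratio of 0.16 and 0.10 in *dhp1-1* and 0.02 in *din1Δ*.

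**Figure D2:**
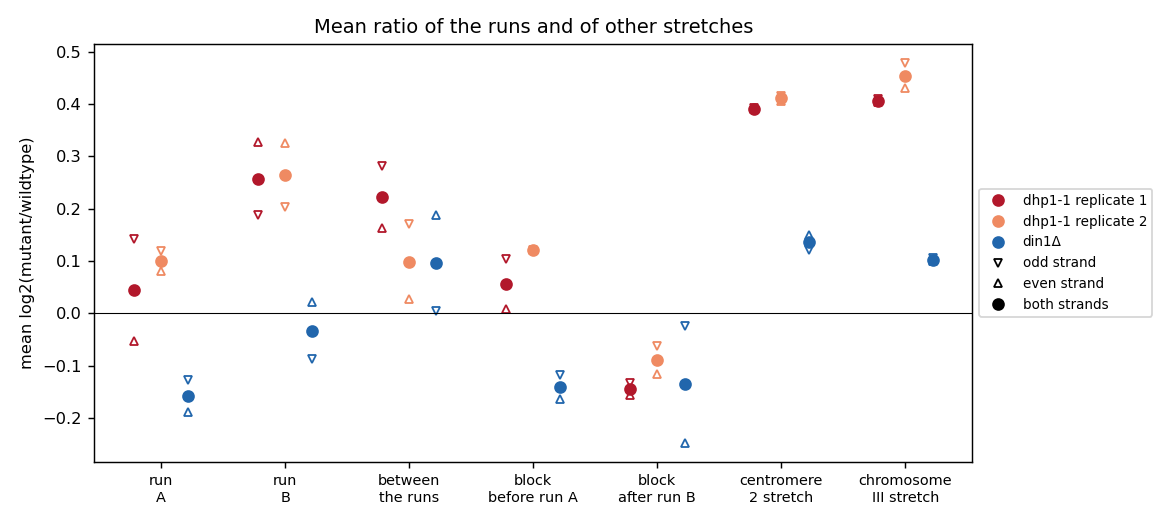
Mean log2(mutant/wildtype) of each array over run A, run B, the block between them, the blocks next to their outer ends, and the stretches given for comparison. Filled circles average both strands, triangles pointing down the odd strand and triangles pointing up the even strand. Run B lies at 0.26 and 0.27 in *dhp1-1*, between run A and the centromere 2 stretch, and only the last 2 stretches have nearly equal strands on all 3 arrays.

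The block between the runs had a ratio of 0.22 and 0.10 in *dhp1-1* and 0.10 in *din1Δ*. Its *dhp1-1* mean of 0.16 ± 0.09 (SD, n = 2) missed the threshold (limma, adjusted p = 0.189). Its odd strand had 0.28 and 0.17 in *dhp1-1* and 0.005 in *din1Δ*, and its even strand 0.16 and 0.03 in *dhp1-1* and 0.19 in *din1Δ*. The block before run A had 0.06 and 0.12 in *dhp1-1* and -0.14 in *din1Δ*, and the block after run B had -0.15 and -0.09 in *dhp1-1* and -0.14 in *din1Δ*. Run B thus ended at a block in which all 3 arrays were below 0.

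The flanking genes were below 0 on all 3 arrays as normalized here. In the values that the study listed, *grc3* was level with wildtype in *dhp1-1*, and *dcr1* was not lowered in *din1Δ*. *dcr1*, at probes sp40c_147789 to sp40c_147805 on the odd strand, had a ratio of -0.27 and -0.39 in *dhp1-1* and -0.09 in *din1Δ*. *grc3*, at probes sp40c_150500 to sp40c_150508 on the even strand, had a ratio of -0.17 and -0.34 in *dhp1-1* and -0.09 in *din1Δ*.

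Over the centromere 2 stretch the ratio was 0.39 and 0.41 in *dhp1-1* and 0.14 in *din1Δ*. Over the longest stretch of this kind on chromosome III between *ipi1* and *epe1* (880 probes) it was 0.41 and 0.45 in *dhp1-1* and 0.10 in *din1Δ*. The even strand minus the odd strand was -0.001 and -0.008 in *dhp1-1* over the centromere 2 stretch and -0.005 and -0.05 over the chromosome III stretch. These comparisons share arrays with those of the runs, and no difference between the stretches was tested.

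Along the runs, windows of 20 same-strand probes showed where the *dhp1-1* signal was raised. In run A, 1 of 16 windows was higher in *dhp1-1* at an adjusted p under 0.05 and 0 were lower, against 18.8% of all 8704 windows higher and 10.4% lower. In run B, 5 of 18 windows were higher and 0 lower, and nothing is read from this count, since it rests on the ratio for which run B was listed. Neither window of the block between the runs was called. At an unadjusted p under 0.05 from limma, 3 of the 16 windows of run A were higher in *dhp1-1* and 1 was lower, the even strand of probes sp40c_148641 to sp40c_148680, against 23.8% and 14.9% of all windows. The *dhp1-1* mean was above 0 in 12 of the 16 windows and the *din1Δ* ratio in 4, against 53.5% and 52.1% of all windows.

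**Figure D3:**
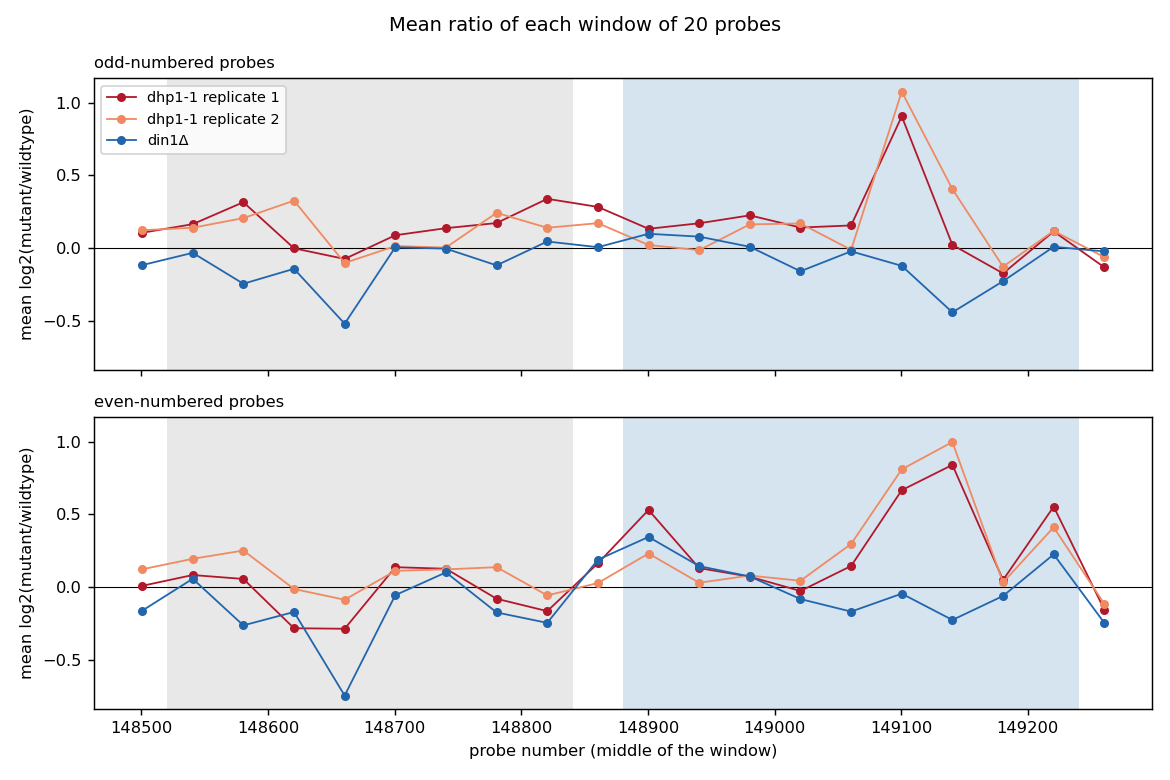
Mean log2(mutant/wildtype) of each window of 20 probes on the odd strand (top) and the even strand (bottom), by array, with the blocks next to the outer ends of the runs included (run A shaded grey, run B shaded blue). The *dhp1-1* arrays peak together in the windows of probes sp40c_149081 to sp40c_149160, and the lowest *din1Δ* windows lie at probes sp40c_148641 to sp40c_148680.

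In run A the highest window on both strands was that of probes sp40c_148561 to sp40c_148600. On the odd strand it had a ratio of 0.31 and 0.20 in *dhp1-1* and -0.25 in *din1Δ*. Its *dhp1-1* mean of 0.26 ± 0.08 (SD, n = 2) passed the threshold (adjusted p = 0.0312 from limma). It passed without background correction and with the scanner log ratio, but not under the other 5 of 7 alternatives, and over its probes above background in 1 channel or more it was 0.11 (adjusted p = 0.543 from limma). Its even strand had 0.05 and 0.25 in *dhp1-1* and -0.26 in *din1Δ*, with a mean that did not pass (adjusted p = 0.222 from limma). The lowest window on both strands was that of probes sp40c_148641 to sp40c_148680. Its odd strand had -0.08 and -0.10 in *dhp1-1* and -0.52 in *din1Δ*, and its even strand -0.29 and -0.09 in *dhp1-1* and -0.75 in *din1Δ*. Over probes above background in 1 channel or more, the even strand was -0.31 in *dhp1-1* and called lower (adjusted p = 0.0417 from limma). No other setting called it lower. The other windows of run A had *dhp1-1* means between -0.15 and 0.24.

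In run B the highest windows lay at probes sp40c_149081 to sp40c_149160. The odd strand of probes sp40c_149081 to sp40c_149120 had a ratio of 0.91 and 1.08 in *dhp1-1* and -0.12 in *din1Δ*, and the even strand 0.67 and 0.81 in *dhp1-1* and -0.05 in *din1Δ*. The even strand of probes sp40c_149121 to sp40c_149160 had 0.84 and 1.00 in *dhp1-1* and -0.23 in *din1Δ*. The odd strand of the same probes had 0.02 and 0.40 in *dhp1-1* and -0.44 in *din1Δ*, and here the *dhp1-1* replicates were apart. The even strand of probes sp40c_148881 to sp40c_148920 had 0.53 and 0.23 in *dhp1-1* and 0.34 in *din1Δ*, and that of probes sp40c_149201 to sp40c_149240 had 0.55 and 0.41 in *dhp1-1* and 0.22 in *din1Δ*. These last windows were above 0 in *din1Δ* as well. The lowest windows were the odd strand of probes sp40c_149161 to sp40c_149200, with -0.18 and -0.13 in *dhp1-1* and -0.23 in *din1Δ*, and the even strand of probes sp40c_149001 to sp40c_149040, with -0.03 and 0.04 in *dhp1-1* and -0.08 in *din1Δ*.

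Set against *din1Δ*, *dhp1-1* was mostly the higher in run A. Both *dhp1-1* arrays were above the *din1Δ* array in 15 of its 16 windows and below it in 0. Over all windows, both *dhp1-1* arrays were above *din1Δ* in 45.2% and below it in 35.3%. In run B they were above it in 13 of the 18 windows and below it in 1. Nothing is read from the count of run B, which rests on the ratio for which the run was listed. In the fit, 2 windows of run A were higher in *dhp1-1* than in *din1Δ* at an adjusted p under 0.05 and 0 were lower, against 8.65% of all windows higher and 4.48% lower. At an unadjusted p under 0.05 from limma, 5 of the 16 windows were higher and 0 lower, against 15.6% and 9.64% of all windows. The windows of run A were the odd strand of probes sp40c_148561 to sp40c_148600, with a difference of 0.51 (standard error 0.15, adjusted p = 0.0329 from limma), and the even strand of probes sp40c_148641 to sp40c_148680, with 0.56 (standard error 0.16, adjusted p = 0.0213 from limma). The odd window was called under none of the 7 alternatives (adjusted p between 0.0531 and 0.255 from limma). The even window was called with the scanner log ratio and over probes above background in 1 channel or more, but not under the other 5, and as a median over probes its difference was 0.20 (adjusted p = 0.522 from limma). The window of probes sp40c_148561 to sp40c_148600 rested on a raised *dhp1-1* ratio together with a lowered *din1Δ* ratio, and that of probes sp40c_148641 to sp40c_148680 on the low *din1Δ* ratio. *dhp1-1* replicate 1 alone, which shared a slide with *din1Δ*, was 0.56 and 0.46 above *din1Δ* in these windows. In run B, where the difference holds the *dhp1-1* ratio known at its listing and is a description without a test, the highest differences were on both strands of probes sp40c_149081 to sp40c_149120, with 1.11 on the odd and 0.78 on the even strand, and both strands of probes sp40c_149121 to sp40c_149160, with 0.66 on the odd and 1.15 on the even strand.

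The strands of the *dhp1-1* ratio were then compared. The runs were chosen by the wildtype signal of each strand, which is also the denominator of these ratios, so the values are a description without a test. Over run A the even strand minus the odd strand was -0.20 and -0.04 in *dhp1-1* and -0.06 in *din1Δ*, with a *dhp1-1* mean of -0.12 (standard error 0.10). Over run B it was 0.14 and 0.12 in *dhp1-1* and 0.11 in *din1Δ*, with a *dhp1-1* mean of 0.13 (standard error 0.098). Of the single blocks, 2 of run A were higher on the odd strand and 3 of run B on the even strand at an adjusted p under 0.05, against 31.5% of all 4352 blocks in either direction, and nothing is read from these counts. The largest of these differences was 0.71 on average at probes sp40c_149121 to sp40c_149160, with 0.82 and 0.59 in *dhp1-1* and 0.22 in *din1Δ*. In run A they were -0.31 at probes sp40c_148601 to sp40c_148640 and -0.35 at probes sp40c_148801 to sp40c_148840.

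**Figure D4:**
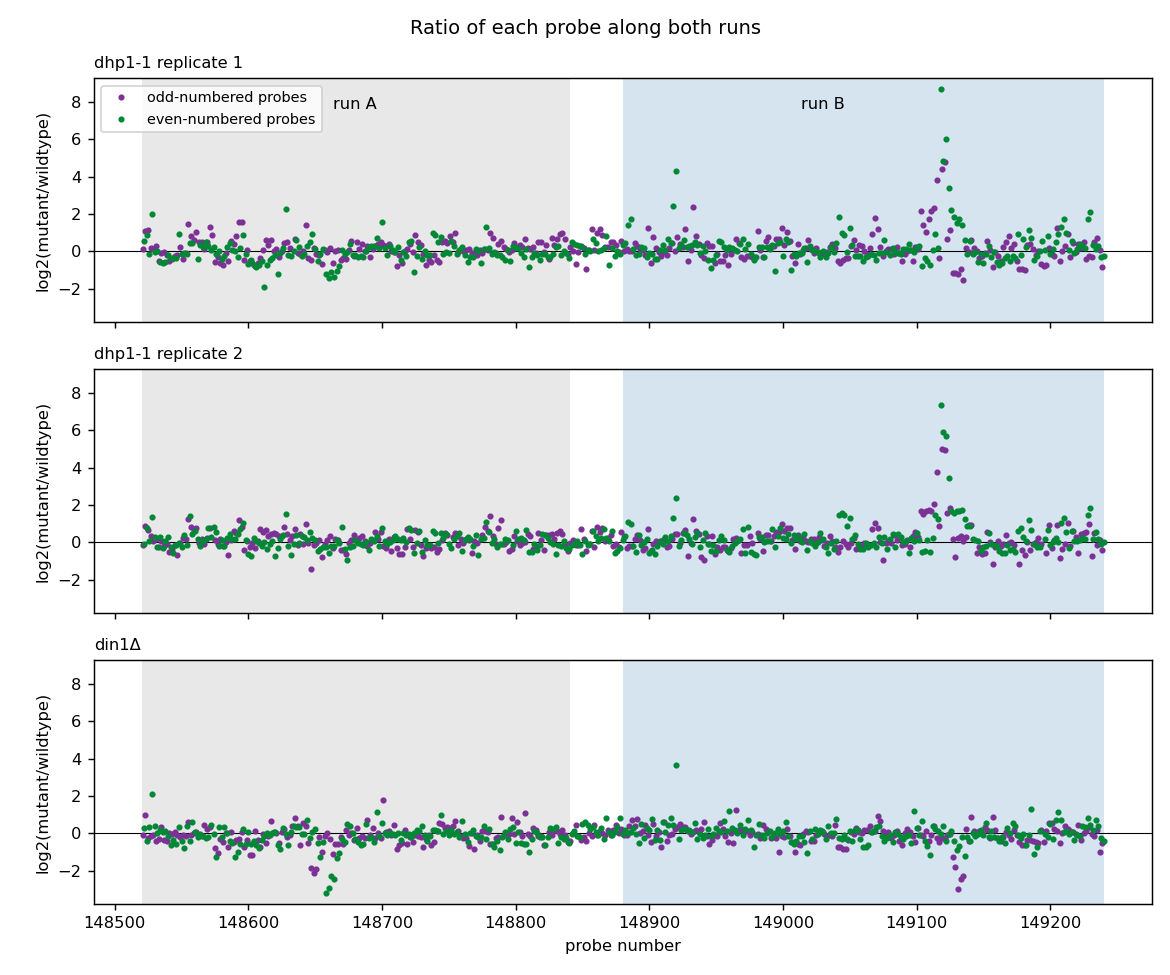
Log2(mutant/wildtype) of each of the 720 probes on the 3 arrays, by strand (run A shaded grey, run B shaded blue). A peak near probe sp40c_149118 stands on both *dhp1-1* arrays and not on the *din1Δ* array, and *din1Δ* has low probes near sp40c_148658 and sp40c_149131.

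Single probes were counted past 1.6-fold, the size that the study took as the limit for arrays. In run A, 15 of 314 measured probes were higher on both *dhp1-1* arrays and 1 was lower, and in run B 42 of 354 were higher and 3 were lower. That is 4.78% higher in run A and 11.9% in run B, against 5.19% of all probes higher and 1.91% lower. The *dhp1-1* count of run B rests on the ratio for which the run was listed, and nothing is read from it. In *din1Δ*, 11 probes of run A were higher and 32 of 318 lower (10.1%), and 19 of run B were higher and 23 of 358 lower (6.42%), against 5.90% of all probes higher and 5.39% lower. Over the probes measured on both arrays of a pair (708 to 714), the correlation of the ratios was 0.84 between the *dhp1-1* replicates, 0.31 between *din1Δ* and the replicate on its slide (replicate 1), and 0.10 between *din1Δ* and replicate 2. These are correlations across probes, which are not independent.

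The raised probes of run B gathered in a cluster on both strands. Of the 42 probes past 1.6-fold on both *dhp1-1* arrays, 20 lay between probes sp40c_149103 and sp40c_149134, 10 on each strand. On the odd strand, 7 neighbouring probes from sp40c_149103 to sp40c_149115 had a mean ratio of 2.09 and 2.02 in *dhp1-1* and -0.06 in *din1Δ*. Only 3 of these 7 probes were above background in both channels of all 3 arrays, so the size of this ratio is uncertain. On the even strand, 9 neighbouring probes from sp40c_149118 to sp40c_149134 had a mean ratio of 3.51 and 3.41 in *dhp1-1* and -0.24 in *din1Δ*, and 8 of them were above background throughout. The mutant level of these even-numbered probes was 12.8 log2 units on both *dhp1-1* arrays and 9.18 in *din1Δ*, while the wildtype level was 9.33 and 9.39 on the *dhp1-1* arrays and 9.42 on the *din1Δ* array. On average over this group the wildtype levels were thus similar, and the mutant channel of *dhp1-1* was the one that stood apart. Probe by probe the wildtype strains were less alike. The wildtype intensity of probe sp40c_149120 was higher on the *din1Δ* array, and that of sp40c_149122 was lower there.

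**Figure D5:**
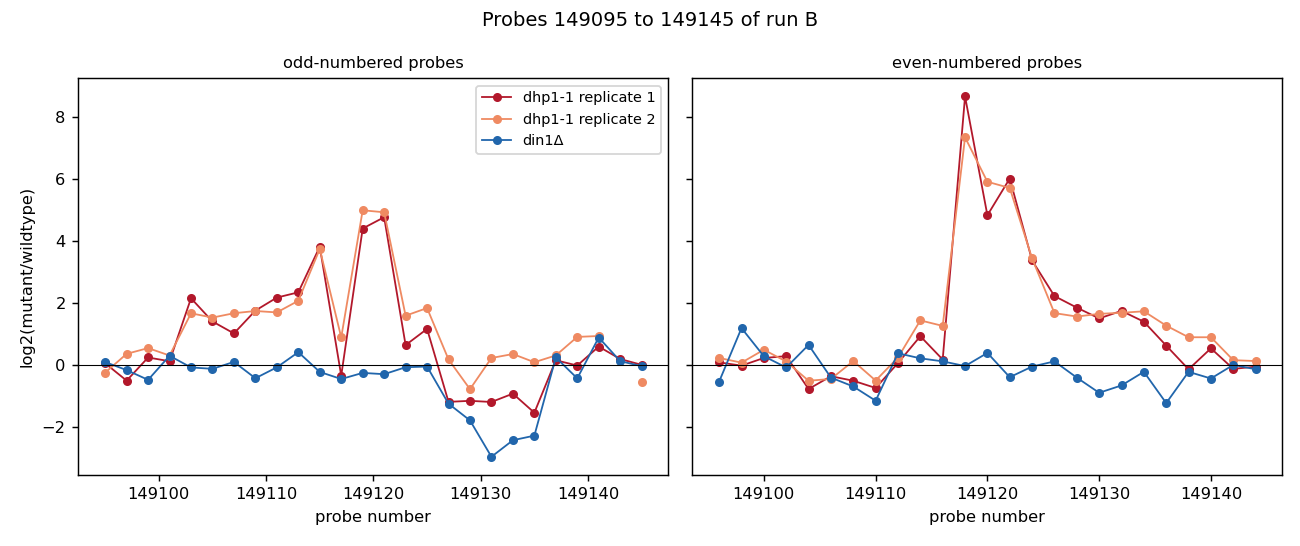
Log2(mutant/wildtype) of probes sp40c_149095 to sp40c_149145 on the odd strand (left) and the even strand (right), by array. The *dhp1-1* arrays follow each other from sp40c_149103 to sp40c_149115 on the odd strand and from sp40c_149118 to sp40c_149134 on the even strand, where *din1Δ* has a mean of -0.06 and -0.24, and from sp40c_149127 to sp40c_149135 on the odd strand *dhp1-1* replicate 1 and *din1Δ* are below 0 at every probe, and *dhp1-1* replicate 2 only at sp40c_149129.

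Among the probes above background in both channels of all 3 arrays, probe sp40c_149122 on the even strand had the highest *dhp1-1* ratio of run B, with 6.01 and 5.71 in *dhp1-1* and -0.40 in *din1Δ*. Its background-subtracted intensity in the mutant channel was 125796 and 111954 in *dhp1-1* and 151.5 in *din1Δ*, and in the wildtype channel 1006 and 1526.5 on the *dhp1-1* arrays and 204 on the *din1Δ* array. The signal of the *dhp1-1* strain was thus far above that of its wildtype on both arrays, and that of *din1Δ* was below that of its own. Probe sp40c_149120, also on the even strand, had 4.83 and 5.91 in *dhp1-1* and 0.39 in *din1Δ*. Its wildtype intensity was 1804 and 1305 on the *dhp1-1* arrays and 11047.5 on the *din1Δ* array, so that the wildtype strains differed at this probe. Probe sp40c_149121 on the odd strand had 4.77 and 4.93 in *dhp1-1* and -0.30 in *din1Δ*, with intensities of 6170.5 and 25744.5 in the *dhp1-1* channel and 398 in the *din1Δ* channel. Probe sp40c_149118, named after its values were seen, had the highest ratio of all 720 probes, 8.66 and 7.34 in *dhp1-1* and -0.04 in *din1Δ*. It was not above background in *din1Δ*, with an intensity of 62.0 there and of 153626 and 138159 in *dhp1-1*.

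On the odd strand beside the raised even-numbered probes, 5 neighbouring probes from sp40c_149127 to sp40c_149135 were low in *din1Δ*. Their mean ratio was -1.20 and 0.01 in *dhp1-1* and -2.14 in *din1Δ*. The *dhp1-1* replicates were apart here, and the replicate that shared a slide with *din1Δ* was the lower. The wildtype level of these probes was 12.0 and 10.8 on the *dhp1-1* arrays and 12.2 on the *din1Δ* array, so that the wildtype samples of strain p1087 were themselves apart. The mutant levels were 10.8 on both *dhp1-1* arrays and 10.1 in *din1Δ*. Probe sp40c_149129 of this group, with -1.16 and -0.78 in *dhp1-1* and -1.79 in *din1Δ*, was among the 3 lowest of run B. The others were probes sp40c_149177, with -0.94 and -1.17 in *dhp1-1* and -0.49 in *din1Δ*, and sp40c_149157, with -0.86 and -1.15 in *dhp1-1* and 0.88 in *din1Δ*.

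Some of the 32 probes of run A that were lower in *din1Δ* past 1.6-fold were neighbours. On the even strand, 6 neighbouring probes from sp40c_148658 to sp40c_148668 had a mean ratio of -1.15 and -0.20 in *dhp1-1* and -2.20 in *din1Δ*. On the odd strand, 3 neighbouring probes from sp40c_148647 to sp40c_148651 had -0.14 and -0.53 in *dhp1-1* and -1.97 in *din1Δ*. Only 2 of the 6 even-numbered and 1 of the 3 odd-numbered probes were above background in both channels of all 3 arrays. Over the even-numbered group the mutant level was 9.14 and 8.86 in *dhp1-1* and 7.44 in *din1Δ*, and the wildtype level 10.3 and 9.06 on the *dhp1-1* arrays and 9.64 on the *din1Δ* array. The *din1Δ* level was thus below that of every wildtype and *dhp1-1* channel in this group. Without probes sp40c_148641 to sp40c_148680, a choice made after their values were seen, the *din1Δ* ratio of run A was -0.09.

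The highest probe of run A was sp40c_148528 on the even strand, with a ratio of 1.98 and 1.34 in *dhp1-1* and 2.10 in *din1Δ*. It was very bright, with 370944 and 182359 in the mutant channel of *dhp1-1* and 432849 in that of *din1Δ*, and 47896, 39315 and 71795 in the wildtype channel. In run B, the even-numbered probe sp40c_148920 was likewise high on all 3 arrays, with 4.29 and 2.35 in *dhp1-1* and 3.63 in *din1Δ*, and was named after its values were seen. The dyes were not swapped, so that an effect of the dye and a rise in both mutants cannot be told apart at such probes. The next highest probes of run A were sp40c_148781, with 1.00 and 1.40 in *dhp1-1* and -0.55 in *din1Δ*, and sp40c_148643, with 1.40 and 0.97 in *dhp1-1* and 0.38 in *din1Δ*. The lowest were sp40c_148612, with -1.94 and 0.03 in *dhp1-1* and -0.14 in *din1Δ*, sp40c_148647, with -0.45 and -1.42 in *dhp1-1* and -1.86 in *din1Δ*, and sp40c_148655, with -0.70 and -0.78 in *dhp1-1* and -0.99 in *din1Δ*. Of these, only sp40c_148655 had *dhp1-1* replicates that lay close to each other.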

How the data were processed

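For each array the authors deposited scanner output of Agilent Feature Extraction 10.7.3.1, with unnormalized spot and background intensities, a log10 ratio (Cy5 over Cy3) with a p-value, and flags for dim and outlying spots. The log2 table that the authors deposited holds this ratio, and 0 where the p-value was 0.05 or more, and 0 of its columns were left out.

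Median spot intensities were corrected with normexp (offset 50) and normalized by loess within arrays in limma 3.58.1 (R 4.3.3), leaving out control and outlying spots (295 to 1345 per array; 0 spots were saturated). Channel levels were scaled between arrays by Aquantile. Odd and even numbers were taken as the strands. Ratios were averaged over windows, blocks and runs and tested by lmFit and eBayes. P-values were adjusted by Benjamini-Hochberg across 8737 overlapping features, whose spread is mostly borrowed across features. The fit was tested on simulated data with independent noise at each probe and the same shift at all probes of a changed window. Probes of the arrays were correlated along a strand, so the simulation does not show how often windows of such probes are wrongly called. Tables used pandas 2.3.3 and numpy 2.4.6 in Python 3.11.15.

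The 36 genes were placed where every other probe averages to the value listed by the study, within 1e-08 on the log2 scale, and gene lengths and order are those of RefSeq (ASM294v3). Members, lists, rules and tests were chosen with earlier results of these data known. Named windows are the highest and lowest of each run and strand, those called, and the blocks beside and between the runs. Named probes are the 3 highest and 3 lowest of each run by *dhp1-1* ratio, among those above background in both channels of all arrays. Exceptions are marked. Alternatives changed the background correction, the normalization, the ratio source, the filter on dim probes, the mean over probes, the strands used, the handling of the slide and the replicates used.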

Additional observations from a re-analysis of the deposited data

Results flagged for a closer look

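The difference between the mutants was flagged in 6 windows, of which those of run A were called by limma with adjustment over all features. In run A these were 2 of 16 windows, against 8.65% of all windows higher in *dhp1-1*, and nothing is read from the count. Of the 7 alternatives, the odd window of run A was called under 0 and the even window under 2. In run A the difference of *dhp1-1* minus *din1Δ* was 0.51 on the odd strand of probes sp40c_148561 to sp40c_148600 and 0.56 on the even strand of probes sp40c_148641 to sp40c_148680. In run B it was 1.11 on the odd and 0.78 on the even strand of probes sp40c_149081 to sp40c_149120, and 0.66 on the odd and 1.15 on the even strand of probes sp40c_149121 to sp40c_149160. The values of run B include the *dhp1-1* ratio for which the run was listed and are a description. Both *dhp1-1* arrays were above 0 and the *din1Δ* array below 0 over the whole of run A, with a difference of 0.23, and of run B, with a difference of 0.29. The difference did not pass the threshold over run A and was not tested over run B.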

How the results depend on the processing

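For the averages over the whole of run A and over the block between the runs, no test passed the threshold under any setting run. Neither the directions of these averages nor those of the strand differences turned. Single windows of run A did pass under some settings. Values of run B moved by more than the small spread between its *dhp1-1* replicates. Its *dhp1-1* ratio was 0.28 with median centring, 0.32 with the scanner log ratio, 0.31 with the deposited log2 table, 0.086 as a median over probes, 0.195 on the odd strand alone and 0.33 on the even strand alone. Its difference from *din1Δ* was 0.30 with median centring, 0.35 with the scanner log ratio, 0.33 with the deposited table, 0.33 over probes above background in 1 channel, 0.32 over probes above it in both, 0.10 as a median, 0.28 on the odd strand and 0.31 on the even strand. Its *din1Δ* ratio was -0.025 with median centring, -0.064 over probes above background in 1 channel, -0.058 over probes above it in both, -0.014 as a median, -0.088 on the odd strand and 0.022 on the even strand. The *din1Δ* ratio of run A was -0.25 with the scanner log ratio, -0.20 with the deposited table, -0.22 over probes above background in 1 channel and -0.11 as a median. In an alternative chosen after seeing the data, run B without probes sp40c_149081 to sp40c_149160 had 0.13 in *dhp1-1*, 0.11 as the difference and 0.018 in *din1Δ*, and run A without probes sp40c_148641 to sp40c_148680 had -0.090 in *din1Δ*. The cause of these shifts was not tested.

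Of the 36 windows, 6 were called in *dhp1-1*, but 2 as medians over probes and 0 with the deposited table, against 29.2%, 22.3% and 0.161% of all windows. In the main fit, 5 of these 6 windows lay in run B, as did 4 of the 6 called for the difference between the mutants. Run B was listed for its *dhp1-1* ratio, so nothing is read from the counts in this paragraph. Over probes above background in 1 channel or more, 8 were called, 7 higher and 1 lower, against 28.5% of all windows. The counts were the same over probes above background in both channels, against 22.2% of all windows. For the difference between the mutants 6 were called, but 3 without background correction, with median centring, with the scanner log ratio or over probes above background in both channels, and 0 as medians or with the deposited table, against 13.1% of all windows, 3.56% to 8.96% under these alternatives other than the deposited table, and 0% with that table. With the deposited table, limma gave 8 windows at an unadjusted p under 0.05 for each contrast, and with the median 3 for the difference. Past 1.6-fold on both *dhp1-1* arrays, 59 probes were higher and 4 lower, but 100 and 29 with the scanner log ratio, and in *din1Δ* 32 were higher and 55 lower, but 81 and 120.

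Leaving out either replicate gave values with no test. The *dhp1-1* ratio was 0.04 to 0.10 over run A, 0.258 to 0.265 over run B and 0.10 to 0.22 between the runs, the difference 0.20 to 0.26 over run A and 0.29 to 0.30 over run B, and the strand difference -0.20 to -0.04 over run A and 0.12 to 0.14 over run B. Within the slide that *dhp1-1* replicate 1 shares with *din1Δ*, used as a block, the difference was 0.20 over run A and 0.29 over run B. No paired analysis was possible because *din1Δ* has 1 array, which shares a slide with *dhp1-1* replicate 1 alone. The number of arrays limits the precision, and at probes not above background a ratio is only a bound on the change.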
